A study of Mus musculus with 6 samples.

Results

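Aminoacyl-tRNA synthetases are the enzymes that load each amino acid onto its transfer RNA, and 36 of their genes were followed here among the 33924 gene symbols measured in E14 mouse embryonic stem cells. They were taken by symbol and grouped by where the enzyme works. Of these, 13 encode cytosolic enzymes described as targets of the transcription factor ATF4, 7 encode other cytosolic enzymes or their subunits, and 16 encode mitochondrial enzymes. All 36 passed the filter on low counts that left 14250 genes for testing.

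The study set 3 libraries labelled Rif1-KO against 3 libraries labelled control and wild type. Rif1 encodes a chromatin protein with roles in replication timing and break repair. For both groups the labels give the E14 line, 2i medium, which keeps stem cells naive, and 0.1 µM 4-hydroxytamoxifen for 2 days with 1 further day off the drug. The file headers, however, carry TAM in the Rif1-KO libraries alone and 2i in the control libraries alone, so genotype, drug and medium cannot be told apart as sources of a difference. Whether the Rif1-KO cells are 1 clone, how the gene was disrupted, and whether replicates were separate cultures is not stated by the labels or headers. P-values therefore measure the spread between these libraries, which may be technical.

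Total counts were 9185062 to 10980777 in Rif1-KO libraries and 8383632 to 9218036 in control libraries. Levels are given as CPM, which is the read count scaled to a common library size. Rif1 had 602, 604 and 664 CPM in Rif1-KO libraries, against 673, 657 and 700.1 CPM in control libraries. Its log2 fold change was −0.12 ± 0.05 (SE; edgeR quasi-likelihood, Benjamini-Hochberg adjusted p = 0.0509), and a count over the whole gene cannot check a deletion of part of it. The 9 naive and general stem cell markers measured summed to 3651 to 3764 CPM in Rif1-KO libraries and 3667 to 3773 CPM in control libraries. That sum holds opposite moves, since Sox2, Utf1 and Dppa3 fell, with log2 fold changes of −0.54, −0.67 and −1.43, and Fbxo15, Klf4 and Nanog rose, with 0.66, 0.18 and 0.11. Dppa3 was barely expressed, at a mean of 0.81 CPM in Rif1-KO and 2.25 CPM in control libraries, and its standard error was 0.35. Of 10 fibroblast markers, Lum and Fap had 0 counts in all 6 libraries, and the sum was 23.9 to 28.05 CPM in Rif1-KO libraries and 22.9 to 32.7 CPM in control libraries. Primitive endoderm markers summed to 30.5 to 32.7 CPM in Rif1-KO libraries and 15.6 to 16.9 CPM in control libraries. Of the 7 listed, 5 passed the filter and all 5 rose, against 26.1% of all tested genes. Levels were low for Sox17, Gata6 and Pdgfra, with means of 1.02, 2.19 and 2.31 CPM over the 6 libraries. Neuroectoderm markers, with Neurog2 at 0, summed to 107 to 114 CPM in Rif1-KO libraries and 49.1 to 61.5 CPM in control libraries. Most of that sum is Nes, at a mean of 99.8 CPM in Rif1-KO libraries and 46.2 CPM in control libraries, while Tubb3 of the same list fell by 0.55 on the log2 scale. The endoderm and neuroectoderm sums thus differ between the groups along with the results that follow, and their part in them was not tested.

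Cells carry separate sets of synthetases for the cytosol and for mitochondria, nearly all encoded by different nuclear genes. Gars and Kars are exceptions, since each makes both the cytosolic and the mitochondrial form of its enzyme. Several cytosolic enzymes sit together in the multisynthetase complex. When amino acids run short, uncharged transfer RNA activates the kinase GCN2, which phosphorylates the initiation factor eIF2. Translation of ATF4 then increases, and ATF4 raises transcription of amino acid synthesis, transport and cytosolic synthetase genes through a DNA element called CARE, the C/EBP-ATF response element.

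All 20 cytosolic genes fell in Rif1-KO libraries, and in each of them the 3 Rif1-KO values lay below the 3 control values. The background is high, since 50.9% of the tested genes passed a Benjamini-Hochberg adjusted p under 0.05 in the edgeR quasi-likelihood test. Falls made up 24.8% of the tested genes and rises 26.1%, and 27.8% had all Rif1-KO values below all control values. Among the 4144 genes with a mean of at least 60 CPM, a range that holds all 20, 37.1% fell and 27.6% rose. The sizes were modest: log2 fold changes ran from −0.64 to −0.22, with a median of −0.34, against a median of 0.003 over all tested genes and −0.04 over the genes of at least 60 CPM. Standard errors ran from 0.04 to 0.07. In these bulk libraries, fewer cells of a type and less RNA per cell cannot be told apart.

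**Figure D1:**
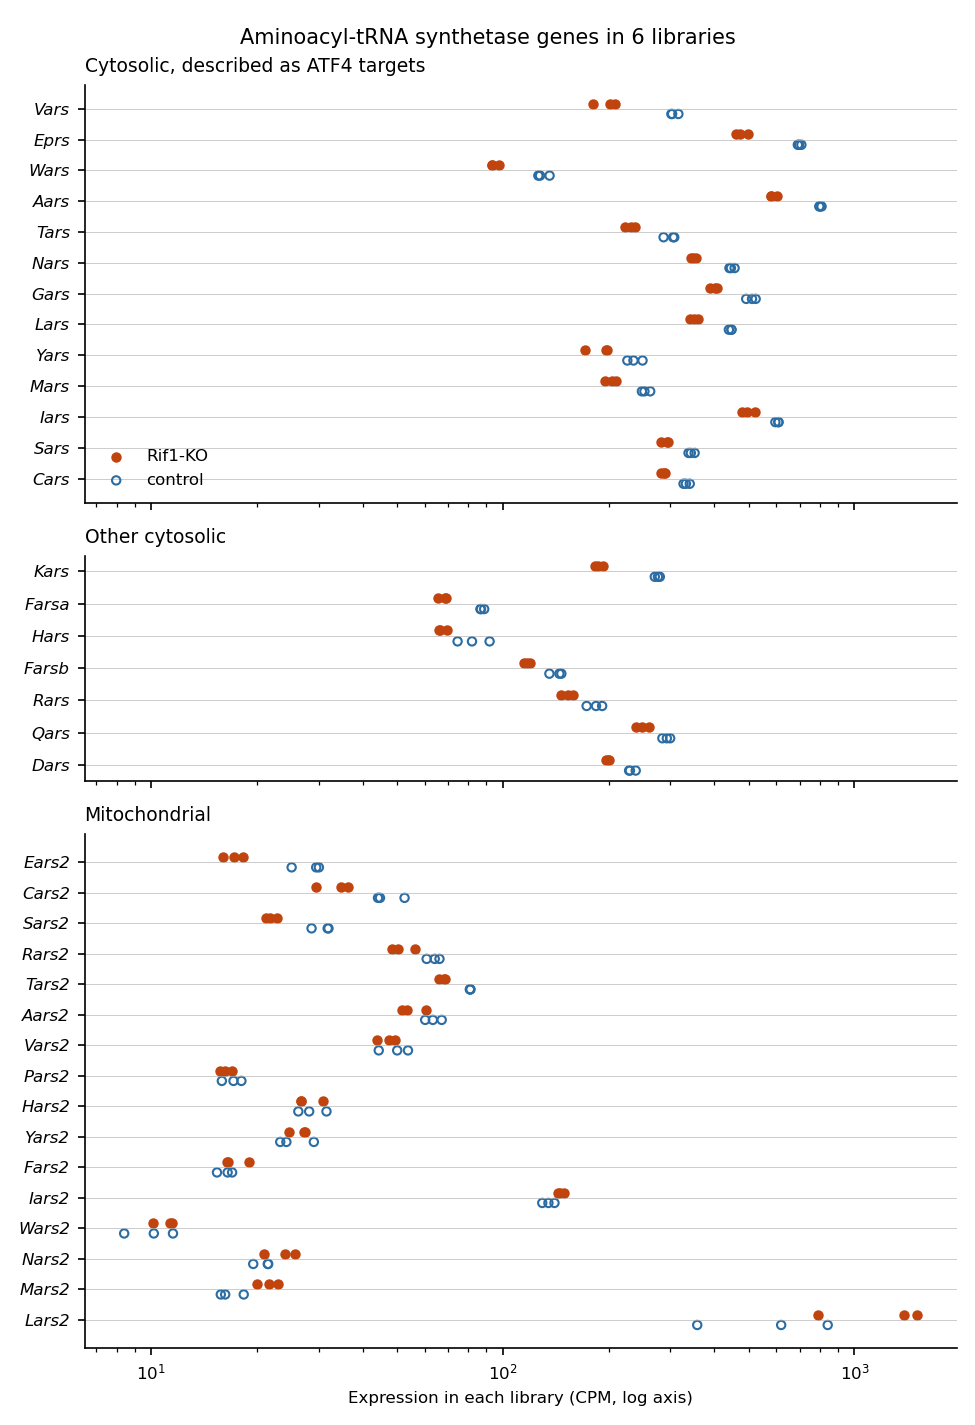
Level of each synthetase gene in each library, in CPM on a log axis, with Rif1-KO values beside control values and 3 libraries per group. Every cytosolic gene has its Rif1-KO points below its control points, while 9 of the 16 mitochondrial genes have groups that overlap. Groups overlap for 6099 of the 14250 tested genes.

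Summed over the 20 cytosolic genes, the level was 5155, 5209 and 5215 CPM in Rif1-KO libraries, against 6682, 6735 and 6698 CPM in control libraries. The mean was 5193 ± 32.9 CPM in Rif1-KO libraries and 6705 ± 27.2 CPM in control libraries (SD, n = 3 each), so the sum fell by 22.6%. Libraries of a group differed far less than the groups did. For the mitochondrial genes other than Lars2 the sum was 594, 583 and 579 CPM in Rif1-KO libraries and 659.9, 628 and 616 CPM in control libraries, a ratio of 0.922. Per kilobase of exon, the cytosolic genes had a median level of 80.4 CPM in Rif1-KO libraries and 94.5 CPM in control libraries. The mitochondrial genes without Lars2 were much lower on this scale, with medians of 8.42 CPM per kilobase in Rif1-KO libraries and 11.2 CPM per kilobase in control libraries. These mitochondrial medians fall on different genes, so their gap does not measure a change. Hars2 had 8.42 in Rif1-KO and 8.60 in control libraries, and Vars2 had 10.6 in Rif1-KO and 11.2 in control libraries. The highest cytosolic gene per kilobase was Gars, the glycine enzyme, at 167 CPM in Rif1-KO libraries and 214 CPM in control libraries.

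Among the 13 cytosolic genes described as ATF4 targets, Vars, which encodes the valine enzyme, had 209, 202 and 181 CPM in Rif1-KO libraries, against 316, 302 and 303 CPM in control libraries. It had the lowest log2 fold change of the cytosolic genes, −0.64 ± 0.05 (SE; edgeR quasi-likelihood, Benjamini-Hochberg adjusted p = 4.32e-09). The groups stood well apart, although the third Rif1-KO library was lower than the other two. Eprs, a fused enzyme for glutamate and proline, had 462, 471 and 498 CPM in Rif1-KO libraries, against 690.4, 707 and 696 CPM in control libraries. The log2 fold change of Eprs was −0.55 ± 0.05 (SE; edgeR quasi-likelihood, Benjamini-Hochberg adjusted p = 5.7e-09), and the spread within either group was small beside the gap.

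Aars, the alanine enzyme and the most abundant cytosolic member in CPM, had 580.3, 579 and 601 CPM in Rif1-KO libraries, against 794, 799 and 806 CPM in control libraries. The log2 fold change was −0.45 ± 0.04 (SE; edgeR quasi-likelihood, Benjamini-Hochberg adjusted p = 5.99e-08). Control libraries were nearly level with each other for Aars, and so were the Rif1-KO libraries. Aars shares 23.1% of its exon bases with Exosc6 on the same strand, so the split of reads between them is uncertain. Exons of 10 of the 36 genes overlap another gene, 5 of them cytosolic, and Iars shares 8.61% of its 50-base stretches with Gm4849. Wars, the tryptophan enzyme, had 93.2, 97.7 and 93.2 CPM in Rif1-KO libraries and 136, 126 and 128 CPM in control libraries, with a log2 fold change of −0.46 ± 0.05 (SE; edgeR quasi-likelihood, Benjamini-Hochberg adjusted p = 2.64e-07). It was the least abundant of the 13, and its groups did not overlap. Nars, the asparagine enzyme, had 343, 348 and 355 CPM in Rif1-KO libraries and 446, 441 and 456 CPM in control libraries, with a log2 fold change of −0.36 ± 0.04 (SE; edgeR quasi-likelihood, Benjamini-Hochberg adjusted p = 9.42e-07).

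The remaining 8 of the 13 also fell. The log2 fold change was −0.38 for Tars (threonine), −0.35 for Gars, −0.35 for Lars (leucine), −0.33 for Yars (tyrosine) and −0.33 for Mars (methionine). It was −0.28 for Iars (isoleucine), −0.24 for Sars (serine) and −0.22 for Cars (cysteine), the smallest of the group. Cars averaged 286 ± 3.93 CPM in Rif1-KO libraries and 333 ± 6.85 CPM in control libraries (SD, n = 3 each). The median of the 13 was −0.35.

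The promoter windows of this group were searched for the CARE letters TGATGNAA, where N is any base, on both strands, from 250 bases before to 50 after each RefSeq start site (GRCm38.p6). Windows were matched by symbol for 8 of the 13 (all but Cars, Lars, Nars, Vars and Wars), and 5 of the 8 hold a match: Aars, Gars, Iars, Tars and Yars. For comparison, 4.51% of 27025 genes with a window hold one. The E-box letters CACGTG, a site read by basic helix-loop-helix factors, occur in 3 of these 8 genes and in 8.09% of all genes. The stretches with matches are printed below to show how close to the start site the letters lie. Capitals mark CARE matches, or an E-box where the run is CACGTG, and the start site is base 1.
Aars, chr8:111033671-111033866, plus strand: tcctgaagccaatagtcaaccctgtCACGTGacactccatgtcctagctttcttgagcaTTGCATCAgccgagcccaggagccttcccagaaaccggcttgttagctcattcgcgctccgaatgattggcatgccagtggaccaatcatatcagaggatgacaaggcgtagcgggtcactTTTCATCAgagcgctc
Gars, chr6:55037946-55038003, plus strand: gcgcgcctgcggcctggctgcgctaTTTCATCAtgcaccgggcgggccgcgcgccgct
Iars, chr13:49682036-49682154, plus strand: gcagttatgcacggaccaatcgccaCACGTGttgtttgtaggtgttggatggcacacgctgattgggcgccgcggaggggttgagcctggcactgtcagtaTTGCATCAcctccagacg
Tars, chr15:11399634-11399698, minus strand: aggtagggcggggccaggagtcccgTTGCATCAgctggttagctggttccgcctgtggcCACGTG
Yars, chr4:129189881-129189927, plus strand: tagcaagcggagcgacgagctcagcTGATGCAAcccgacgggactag

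The Aars window holds 2 CARE matches, whose first bases lie at −112 and 10, and the Gars match starts at −30. In Iars, Tars and Yars the match starts at 8, −15 and 4. Yars reads the letters on the gene's own strand, and the other 4 genes read them on the opposite strand. No match was found for the 5 other cytosolic genes or the 14 mitochondrial genes with a window, which says only that these letters are not in those windows. The 5 cytosolic genes with a match had a median log2 fold change of −0.35, and the 8 cytosolic genes with a window and no match had a median of −0.30. The values ran from −0.45 to −0.28 with a match and from −0.55 to −0.22 without, so the second range holds the first. A match of letters is a description and not a bound site.

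**Figure D2:**
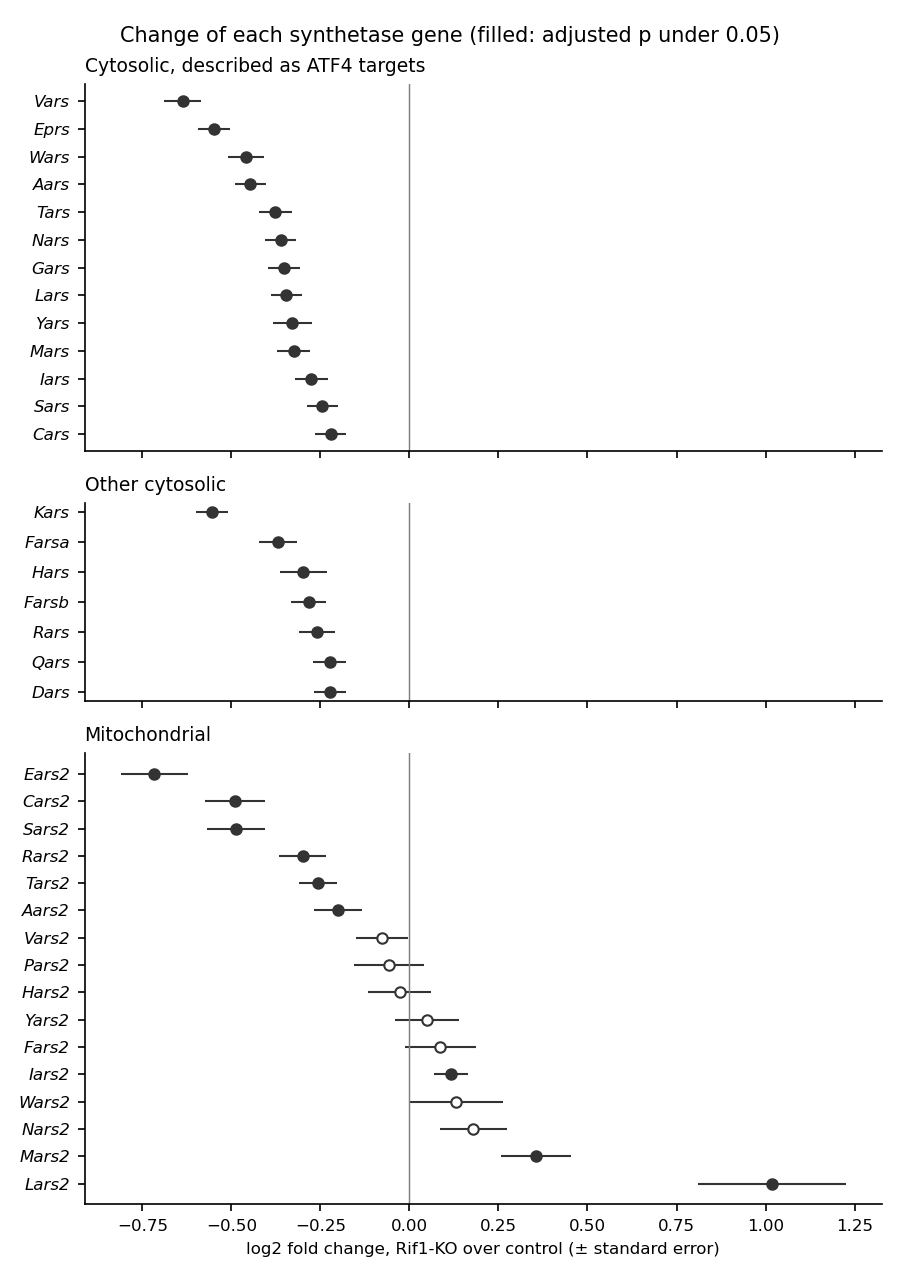
Log2 fold change of each synthetase gene, Rif1-KO over control, with standard errors, and filled points for a Benjamini-Hochberg adjusted p under 0.05 in the edgeR quasi-likelihood test. All 20 cytosolic genes are filled and left of 0, whereas the 16 mitochondrial genes run from −0.72 for Ears2 to 1.02 for Lars2.

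The 7 other cytosolic genes fell as well, with a median log2 fold change of −0.28. Kars, the lysine enzyme, had 187, 183 and 193 CPM in Rif1-KO libraries, against 271, 279.8 and 276 CPM in control libraries. For Kars the log2 fold change was −0.55 ± 0.04 (SE; edgeR quasi-likelihood, Benjamini-Hochberg adjusted p = 3.67e-09), well below those of the other 6. Farsa and Farsb encode the subunits of the phenylalanine enzyme. Farsa had 65.5, 69.0 and 68.5 CPM in Rif1-KO libraries, against 88.7, 86.5 and 86.8 CPM in control libraries, with a log2 fold change of −0.37 ± 0.05 (SE; edgeR quasi-likelihood, Benjamini-Hochberg adjusted p = 7.63e-06). Farsb had 115, 119 and 117 CPM in Rif1-KO libraries, against 145, 147 and 136 CPM in control libraries, with a log2 fold change of −0.28 ± 0.05 (SE; edgeR quasi-likelihood, Benjamini-Hochberg adjusted p = 6.6e-05). Neither subunit gene had overlapping groups, and Farsb shares 11.3% of its exon bases with Sgpp2 on the opposite strand.

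Rars, the arginine enzyme, had 146, 154 and 159 CPM in Rif1-KO libraries, against 173, 192 and 184 CPM in control libraries, and a log2 fold change of −0.26 ± 0.05 (SE; edgeR quasi-likelihood, Benjamini-Hochberg adjusted p = 0.000233). Dars, the aspartate enzyme, had 197, 199 and 201 CPM in Rif1-KO libraries, against 230.1, 239 and 229 CPM in control libraries, and a log2 fold change of −0.22 ± 0.04 (SE; edgeR quasi-likelihood, Benjamini-Hochberg adjusted p = 0.00026). For both genes the nearest libraries of the groups lay closer together than for Kars. Qars (glutamine) and Hars (histidine) completed the group with log2 fold changes of −0.22 and −0.30. The 8 enzyme genes of the multisynthetase complex (Eprs, Iars, Lars, Mars, Qars, Rars, Kars and Dars) had a median of −0.30, and the 12 cytosolic genes outside it had a median of −0.36. With a minimum fold of 1.2 built into edgeR's test, 10 of the 20 cytosolic genes still fell, 8 of the 13 ATF4 targets and 2 of the 7 others. Of all tested genes, 9.31% fell and 13.5% rose in that test. Those genes had a lower median level, 26.9 CPM, and a larger median standard error, 0.09. The share among genes of at least 60 CPM was not computed.

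Among all tested genes 50.9% were called, 24.8% falling and 26.1% rising. Beside these shares, 6 of the 16 mitochondrial genes fell, 3 rose and 7 did not pass, a share called that is near 50.9%. Their median log2 fold change was −0.04, and with an offset for transcript GC content and length 1 rose. They were also less abundant, with a median level of 27.4 CPM against 259 CPM for the cytosolic genes, and their median standard error was 0.09 log2 units. Ears2, the mitochondrial glutamate enzyme, had 18.3, 16.1 and 17.3 CPM in Rif1-KO libraries, against 30.1, 25.2 and 29.5 CPM in control libraries. Its log2 fold change of −0.72 ± 0.09 (SE; edgeR quasi-likelihood, Benjamini-Hochberg adjusted p = 2.78e-06) was the lowest of the 36, and its groups did not overlap.

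Sars2, the mitochondrial serine enzyme, had 22.9, 21.2 and 21.8 CPM in Rif1-KO libraries and 32.0, 31.8 and 28.7 CPM in control libraries, with a log2 fold change of −0.49 ± 0.08 (SE; edgeR quasi-likelihood, Benjamini-Hochberg adjusted p = 5.09e-05). Cars2, the cysteine enzyme, had 36.4, 34.7 and 29.5 CPM in Rif1-KO libraries and 52.7, 44.8 and 44.2 CPM in control libraries, with a log2 fold change of −0.49 ± 0.08 (SE; edgeR quasi-likelihood, Benjamini-Hochberg adjusted p = 6.94e-05). Both were lower in all Rif1-KO libraries. Cars2 shares 17.8% of its 50-base stretches with the opposite-strand gene Naxd, and the strand setting of the counting is not given in the sources used here.

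Tars2, the threonine enzyme, had 68.3, 66.0 and 68.8 CPM in Rif1-KO libraries and 80.8, 80.8 and 81.1 CPM in control libraries, with a log2 fold change of −0.26 ± 0.05 (SE; edgeR quasi-likelihood, Benjamini-Hochberg adjusted p = 0.000391). Rars2, the arginine enzyme, had 50.4, 48.6 and 56.5 CPM in Rif1-KO libraries and 66.2, 64.2 and 60.8 CPM in control libraries, with a log2 fold change of −0.30 ± 0.07 (SE; edgeR quasi-likelihood, Benjamini-Hochberg adjusted p = 0.00072). The groups were apart for both genes, narrowly for Rars2. Aars2, the alanine enzyme, fell by 0.20 on the log2 scale, with 1 Rif1-KO library, at 60.5 CPM, above the lowest control library, at 60.3 CPM. Its log2 fold change was −0.16 without the second Rif1-KO library and −0.16 without the third control library, and neither passed. With the GC and length offset it was −0.10 and did not pass either.

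Mars2, the methionine enzyme, had 21.7, 20 and 23.1 CPM in Rif1-KO libraries and 18.4, 16.3 and 15.8 CPM in control libraries, with a log2 fold change of 0.36 ± 0.10 (SE; edgeR quasi-likelihood, Benjamini-Hochberg adjusted p = 0.00475). All Rif1-KO values lay above the control values, as did 29.4% of tested genes. With the GC and length offset its log2 fold change was 0.17 and its Benjamini-Hochberg adjusted p was 0.141 by the edgeR quasi-likelihood test, in a range of 0.00222 to 0.201 over 16 alternatives. Iars2, the isoleucine enzyme, had 146, 149.6 and 144 CPM in Rif1-KO libraries and 140.5, 135 and 129.6 CPM in control libraries, with a log2 fold change of 0.12 ± 0.05 (SE; edgeR quasi-likelihood, Benjamini-Hochberg adjusted p = 0.0489). The call was lost in 11 of 16 alternative fits, among them those without Rif1-KO library 1 (0.12), Rif1-KO library 2 (0.10), control library 2 (0.11) or control library 3 (0.08). With the GC and length offset the log2 fold change was 0.03. Iars2 shares 36.6% of its 50-base stretches with Rab3gap2 on the opposite strand.

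Of the 7 mitochondrial genes that did not pass, the most abundant were Vars2 and Hars2. Vars2, the valine enzyme, had 47.4, 43.9 and 49.4 CPM in Rif1-KO libraries and 53.8, 50.2 and 44.5 CPM in control libraries, with a log2 fold change of −0.08 ± 0.07 (SE; edgeR quasi-likelihood, Benjamini-Hochberg adjusted p = 0.398). Hars2, the histidine enzyme, had 26.7, 30.8 and 26.8 CPM in Rif1-KO libraries and 26.3, 31.6 and 28.2 CPM in control libraries, with a log2 fold change of −0.03 ± 0.09 (SE; edgeR quasi-likelihood, Benjamini-Hochberg adjusted p = 0.815). The groups were interleaved for both. Vars2 is also an older name of Vars, and both symbols are rows of the count table. Hars2 lies head to head with Hars, and 195 exon bases of the pair overlap on opposite strands, although Hars fell. The other 5 that did not pass had log2 fold changes of −0.06 for Pars2, 0.05 for Yars2, 0.09 for Fars2, 0.13 for Wars2 and 0.18 for Nars2. Without the third Rif1-KO library Nars2 had a log2 fold change of 0.25 and passed (edgeR quasi-likelihood, Benjamini-Hochberg adjusted p = 0.0303, in a range up to 0.928 over 16 alternatives).

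Lars2, the mitochondrial leucine enzyme, was the most variable member. It had 1509, 1379.8 and 789.5 CPM in Rif1-KO libraries, against 839, 357 and 619 CPM in control libraries, with a log2 fold change of 1.02 ± 0.21 (SE; edgeR quasi-likelihood, Benjamini-Hochberg adjusted p = 0.000383). The groups overlapped, since the third Rif1-KO library lay below the first control library. Among 2515 genes with a mean of at least 100 CPM, Lars2 had the highest within-group SD of log2 CPM, 0.568, while other synthetase genes had 0.023 to 0.177.

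**Figure D3:**
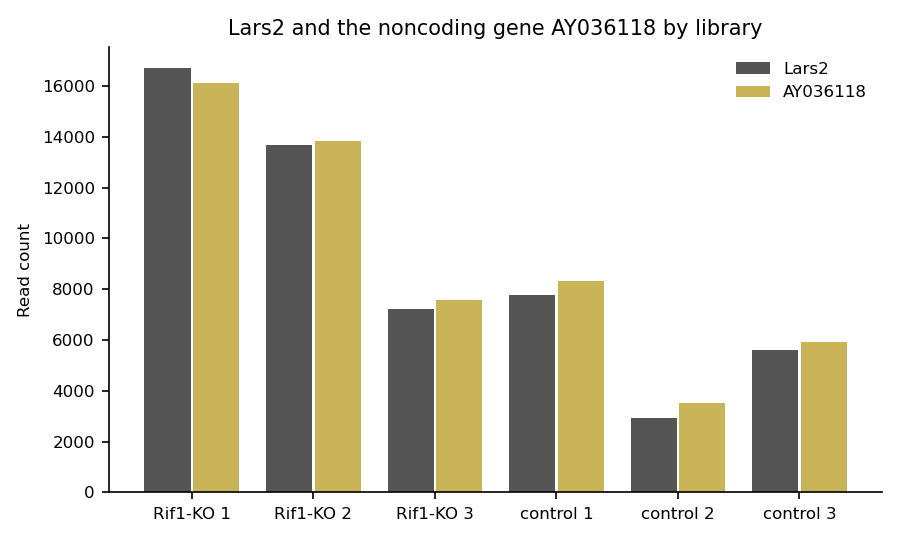
Read counts of Lars2 and of the noncoding gene AY036118 in each of the 6 libraries, with the Rif1-KO libraries on the left. The 2 bars keep nearly the same height in every library, while the height itself varies several-fold among libraries.

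A long noncoding RNA gene on another chromosome, AY036118, ranked next after Lars2 in that within-group SD, at 0.500, and is named here after its values were seen. Lars2 had 16698, 13660 and 7219 counts in Rif1-KO libraries and 7763, 2942 and 5596 counts in control libraries. AY036118 had 16108, 13821 and 7562 counts in Rif1-KO libraries and 8320, 3504 and 5907 counts in control libraries. The ratio of Lars2 to AY036118 counts was 1.04, 0.988 and 0.955 in Rif1-KO libraries and 0.933, 0.840 and 0.947 in control libraries, so both genes followed one library-to-library pattern. Lars2 shares 0.078% of its 50-base stretches with Gm15564 on the same strand, the only gene found to share any. Gm15564 had 239, 179 and 72 counts in Rif1-KO libraries and 126, 51 and 87 counts in control libraries. Like Lars2, AY036118 rose with overlapping groups, with a log2 fold change of 0.89 (edgeR quasi-likelihood, Benjamini-Hochberg adjusted p = 0.00044). Gm15564 also rose with overlapping groups, with a log2 fold change of 0.70 (edgeR quasi-likelihood, Benjamini-Hochberg adjusted p = 0.0285). Why the counts of these genes vary together was not tested, and the rise of Lars2 is given with that limit. Leaving out 1 library moved its log2 fold change between 0.75 and 1.33. Without Lars2 the mitochondrial genes had a median log2 fold change of −0.06.

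For 16 mitochondrial genes the count was also divided by that of the cytosolic gene for the same amino acid, a ratio that does not depend on library scaling. The ratio was higher in Rif1-KO libraries for 12 pairs and lower for 4, and the median log2 difference was 0.39. It ran from −0.27 for Cars2 over Cars to 1.40 for Lars2 over Lars. The 16 pairs use 15 cytosolic genes, since Eprs serves both Ears2 and Pars2, and Farsa alone stands for the phenylalanine enzyme. All these cytosolic genes fell, so a higher ratio in part restates that fall. The smallest p that 3 libraries against 3 can give is 0.1, so no pair can pass by a two-sided exact permutation test, and the smallest adjusted p was 0.114.

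**Figure D4:**
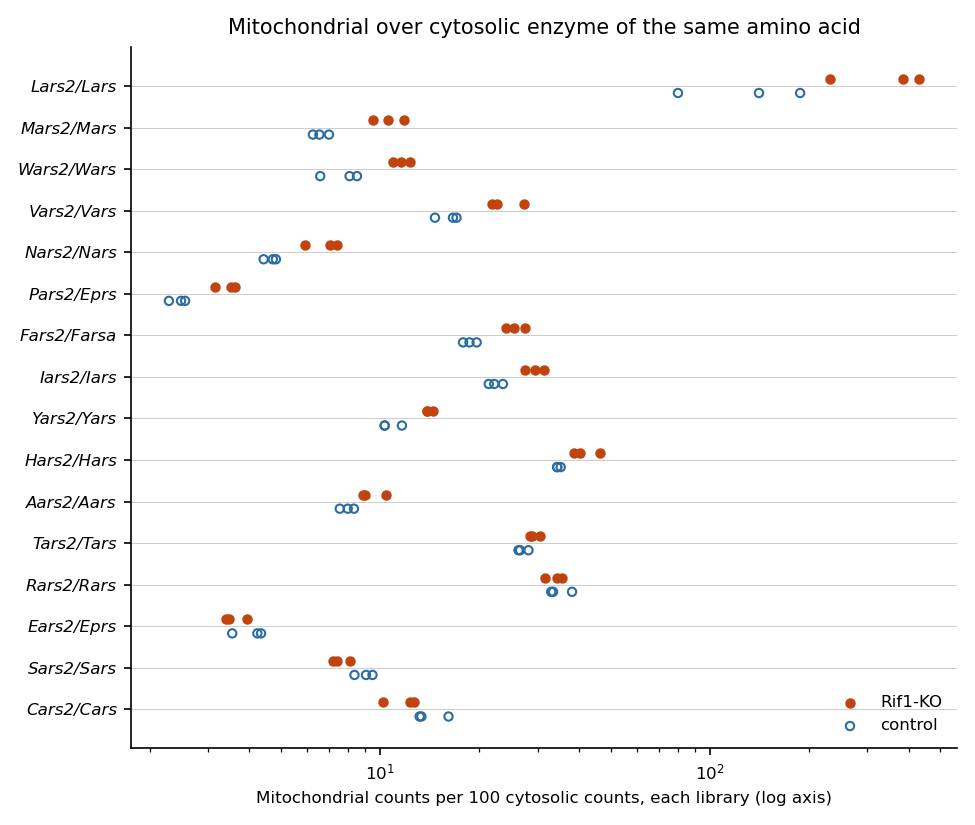
Counts of each mitochondrial synthetase gene per 100 counts of its cytosolic counterpart, by library, with Rif1-KO beside control on a log axis. The ratio is higher in Rif1-KO libraries for 12 of the 16 pairs, and lower for Cars2, Ears2, Rars2 and Sars2.

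Per 100 counts of Mars, Mars2 had 10.6, 9.51 and 11.8 counts in Rif1-KO libraries and 6.996, 6.54 and 6.25 counts in control libraries. Per 100 counts of Vars, Vars2 had 22.7, 21.8 and 27.3 counts in Rif1-KO libraries and 17.04, 16.6 and 14.7 counts in control libraries. In both pairs all 3 Rif1-KO libraries were above all control libraries, although Vars2 itself did not pass. Per 100 counts of Rars, Rars2 had 34.4, 31.6 and 35.6 counts in Rif1-KO libraries and 38.2, 33.4 and 33.0 counts in control libraries, and these groups overlapped, as both genes of the pair fell.

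Genes that work with the cytosolic enzymes were also lower or did not pass. The test called 8 of the 13 measured as falling and 0 as rising, against 24.8% and 26.1% of all tested genes, with a median log2 fold change of −0.31. Xpot, which exports transfer RNA from the nucleus, had 199, 205 and 194 CPM in Rif1-KO libraries, against 275.0, 274.7 and 269 CPM in control libraries. The log2 fold change of Xpot was −0.45 (edgeR quasi-likelihood, Benjamini-Hochberg adjusted p = 5.79e-08). Aimp2, a scaffold of the multisynthetase complex, fell by 0.48, Sephs1, a selenophosphate synthetase relative, by 0.40 and Aarsd1, which removes wrongly loaded alanine transfer RNA, by 0.38 on the log2 scale. Of the other scaffold genes, Aimp1 fell by 0.25 and Eef1e1 had a log2 fold change of −0.12 that did not pass.

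Among 20 genes of mitochondrial transfer RNA handling and translation, 9 fell, 1 rose and 10 did not pass, with a median log2 fold change of −0.20. The share called in either direction is near the 50.9% of all tested genes, but the directions differ. Among all tested genes 24.8% fell and 26.1% rose, while 18 of these 20 genes had a negative log2 fold change and 2 a positive one. Without the first Rif1-KO library or with DESeq2, 5 of the 20 fell. Elac2, a transfer RNA processing nuclease, had 42.2, 45.5 and 45.5 CPM in Rif1-KO libraries and 59.3, 59.4 and 60.5 CPM in control libraries. Its groups were far apart, with a log2 fold change of −0.43 (edgeR quasi-likelihood, Benjamini-Hochberg adjusted p = 7.31e-06). The elongation factor gene Tufm fell by 0.32 and Gfm2, a ribosome recycling factor gene, by 0.19 on the log2 scale. Qrsl1, a subunit of the enzyme that makes mitochondrial glutaminyl-tRNA, had a log2 fold change of 0.26 and overlapping groups. It was the 1 gene that rose, and no gene of the list rose with DESeq2 or without Rif1-KO library 1, Rif1-KO library 2, control library 2 or control library 3.

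**Figure D5:**
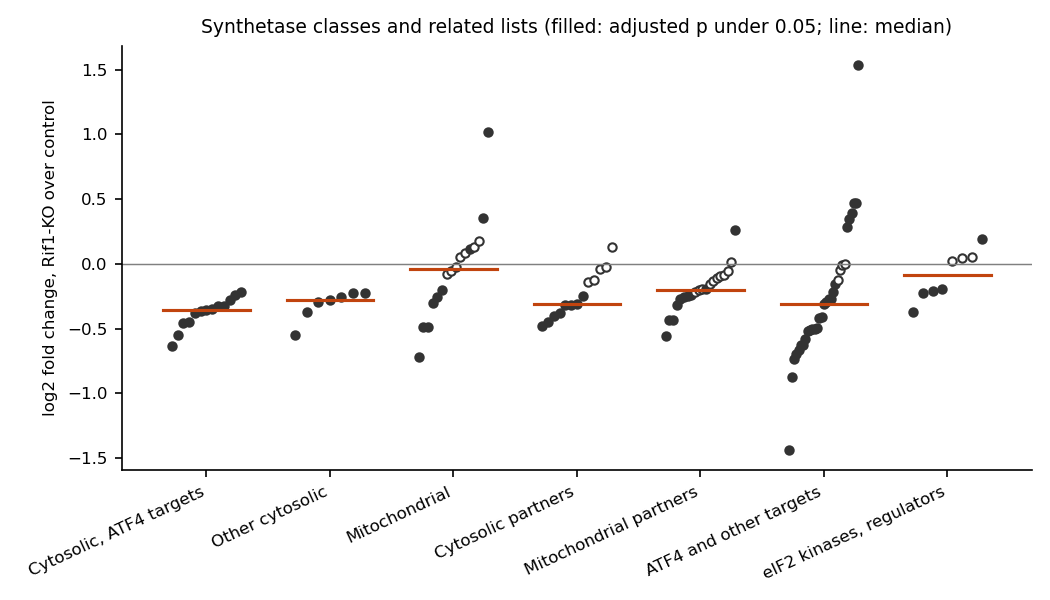
Log2 fold changes, Rif1-KO over control, of the genes in each synthetase class and in the partner, ATF4 and eIF2 lists, with 1 point per gene and the median of each list. The 2 cytosolic classes lie wholly below 0, and the list of other ATF4 targets spreads widest, from −1.44 to 1.54.

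Of 31 further genes described as ATF4 targets or relatives, including Atf4 itself, 21 fell, 6 rose and 4 did not pass, against 24.8% falling and 26.1% rising among all tested genes, and the median log2 fold change was −0.31. Atf4 had 209.8, 196 and 199.7 CPM in Rif1-KO libraries and 245, 249 and 251 CPM in control libraries. The groups were clearly apart, with a log2 fold change of −0.30 (edgeR quasi-likelihood, Benjamini-Hochberg adjusted p = 1.48e-05), though ATF4 activity is set largely by translation, which RNA counts do not show. Shmt2, of mitochondrial one-carbon metabolism, had 155, 150.4 and 155 CPM in Rif1-KO libraries and 234, 248 and 229 CPM in control libraries, a log2 fold change of −0.63 (edgeR quasi-likelihood, Benjamini-Hochberg adjusted p = 1.17e-09). Aldh18a1, of proline synthesis, and Psat1, of serine synthesis, had log2 fold changes of −0.63 and −0.58.

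Atf3, a stress-induced transcription factor gene, moved the other way. It had 17.7, 17.7 and 19.7 CPM in Rif1-KO libraries, against 6.1, 6.7 and 6.2 CPM in control libraries, a log2 fold change of 1.54 (edgeR quasi-likelihood, Benjamini-Hochberg adjusted p = 2.31e-09). The other genes that rose were Ddit3, Slc38a2, Cth, Ddit4 and Vldlr, so the list holds movement in both directions where the cytosolic synthetase genes do not. The CARE letters occur in 9 of the 27 genes of this list with a window, among them Asns, which fell, and Atf3, which rose. Of the rest of the 9, Chac1, Trib3, Nupr1, Pck2 and Pycr1 fell, Vldlr rose and Slc7a11 did not pass. Falls also prevailed in the whole list, where 21 of 31 genes fell and 6 rose, against 24.8% and 26.1% of all tested genes. The split among genes with a match is thus not particular to them. The Asns and Atf3 stretches are shown because CARE matches stand before genes that moved in opposite directions. The base at N is A in Asns and C in Atf3.
Asns, chr6:7693200-7693257, minus strand: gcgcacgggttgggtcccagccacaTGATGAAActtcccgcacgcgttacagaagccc
Atf3, chr1:191183411-191183468, minus strand: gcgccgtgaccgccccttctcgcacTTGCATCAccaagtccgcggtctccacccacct

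Of 8 genes of the GCN2 and eIF2 branch, 4 fell, 1 rose and 3 did not pass, beside 24.8% falling and 26.1% rising among all tested genes. Without control library 3, 2 of them fell. Ppp1r15b, which directs removal of phosphate from eIF2, had 149, 155 and 150.4 CPM in Rif1-KO libraries and 213, 182 and 193 CPM in control libraries. Its log2 fold change was −0.37 (edgeR quasi-likelihood, Benjamini-Hochberg adjusted p = 7.81e-06), and its groups did not overlap. Eif2s1, the eIF2 alpha subunit, fell by 0.21 and Eif2ak2, an eIF2 kinase gene, by 0.23, while Impact, a GCN2 inhibitor gene, rose by 0.19. No gene of the branch rose with the GC and length offset or without control library 2. Eif2ak4, which encodes GCN2, had 64.2, 64.3 and 70.5 CPM in Rif1-KO libraries and 64.9, 62.1 and 65.0 CPM in control libraries, a log2 fold change of 0.05 ± 0.06 (SE; edgeR quasi-likelihood, Benjamini-Hochberg adjusted p = 0.508).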

How the data were processed

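RNA was sequenced from 6 libraries made with an mRNA kit, 3 labelled Rif1-KO and 3 labelled control. The deposited values are raw counts by symbol, made by the authors with STAR, featureCounts 1.6.2 and mm9, as the submitters' processing notes list. No source used here gives the annotation, the strand setting or the handling of multiply mapped reads. After TMM scaling and filterByExpr, edgeR 4.0.16 (R 4.3.3) fitted a quasi-likelihood model with one term, the group, and p-values were adjusted by Benjamini-Hochberg over 14250 genes. "Rose" and "fell" mean an adjusted p under 0.05. DESeq2 1.42.0, limma 3.58.1 (voom), other scalings, no low-count filter, a minimum fold of 1.2, a replicate block, a GC and length offset and leaving out each library were tried. The fit was tested on simulated data. Exon overlap came from GENCODE M21 and promoters from RefSeq GRCm38.p6, another build than that of the counts. The members and lists were chosen with earlier results of these data known. In each class, up to 5 passing genes per direction by adjusted p, and up to 2 others by level, are given per library. Up to 4 passing genes per further list are named, except 1 that is not reported here, and Atf4, Aimp1, Eef1e1, Qrsl1, Asns, Eif2ak4, the cell markers and the other genes that rose were added after their values were seen.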

Additional observations from a re-analysis of the deposited data

How the results depend on the processing

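Across 16 alternatives, 310 of 320 results for the cytosolic genes kept their direction and call. The other 10 were lost under a minimum fold of 1.2, where 1922 genes rose and 1326 fell. In that fit 1 synthetase gene rose and 13 fell, 8 of them cytosolic ATF4 targets, 2 other cytosolic genes and 3 mitochondrial genes, while the 1 that rose was mitochondrial. It also left 3 falling cytosolic partners, 2 falling and 0 rising mitochondrial partners, and 1 falling and 0 rising genes of the eIF2 list. With the GC and length offset, alone or with the replicate block, 1 synthetase gene rose, which was mitochondrial, and 0 genes of the eIF2 list rose. The medians were then −0.39 for ATF4 targets and −0.32 for other cytosolic genes. DESeq2 called 5 falling and 0 rising mitochondrial partners. Leaving out each library in turn gave 3288 to 3667 rising and 3037 to 3432 falling genes, and 2 to 4 rising and 25 to 26 falling synthetase genes. The mitochondrial class had 2 to 4 rising and 5 to 6 falling genes. Mitochondrial partners had 0 to 1 rising and 5 to 8 falling genes, cytosolic partners 7 to 8 falling genes, and the eIF2 list 0 to 1 rising and 2 to 4 falling genes. Median log2 fold changes ran from −0.37 to −0.33 for ATF4 targets, from −0.31 to −0.23 for other cytosolic genes and from −0.08 to −0.0035 for mitochondrial genes. Yars2 reversed to −0.0072 with the offset, −0.010 with the offset and block, and −0.018 without control library 3, within a leave-one-out range of −0.018 to 0.15. Hars2 reversed to 0.011 without Rif1-KO library 1, 0.0022 without Rif1-KO library 3 and 0.041 without control library 2, within a range of −0.10 to 0.041. Neither gene passed in the main test, and the cause of these changes was not tested. Same-numbered libraries did not visibly deviate together, with correlations of 0.08, −0.06 and 0.05. The labels do not say whether same-numbered samples were handled as pairs, and these correlations cannot settle it. With the replicate block, 3779 genes rose and 3607 fell, and 3 synthetase genes rose and 26 fell. Calls also changed for Iars2 (11 of 16 alternatives), Aars2 (5) and Mars2 (3). In 1 alternative each, Rars2 and Tars2 lost their call and Nars2 gained one. With no low-count filter, the edgeR quasi-likelihood, Benjamini-Hochberg adjusted p of Lars2 was 3.26e-102 although its groups overlap, and the cause was not tested. Over the other alternatives it reached 0.0399, with DESeq2.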
